A study of Mus musculus with 15 samples.

Results

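The genes described here encode the proteins of the mitochondrial ribosome, the ribosome that makes the few proteins encoded on mitochondrial DNA. They were chosen by name, as every protein-coding gene of the deposited expression table whose symbol is Mrpl or Mrps followed by a number. The rule found 78 of the 54532 rows of the table, 49 Mrpl genes, named for the large subunit, and 29 Mrps genes, named for the small subunit. The rule uses the symbol and the gene type only, but it was set with earlier results of these data known. In 5 further rows with such a name the symbol ends in ps and the table calls them processed pseudogenes, so they were not members. Their mean levels lay between 0 and 1.40 FPKM (fragments per kilobase of gene and per 1 M fragments, a level corrected for gene length). Mrpl23, Mrpl48 and Mrps36, whose copies these are by name, are uncertain by the fragments such copies can take.

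Levels came from poly-A RNA sequencing of left ventricles from female C57BL/6JRj mice, 12 to 18 weeks of age, 8 days after surgery. In the GSK group (n = 5 libraries) mice received GSK-343, an inhibitor of the histone methyltransferase EZH2, injected daily into the peritoneum at 20 mg/kg, starting 6 h after surgery and ending on day 7. In the MI group (n = 5) the left descending coronary artery had been ligated for good to cause a myocardial infarction, and in the Sham group (n = 5) the mice were surgical controls. By the labels both of these groups received the vehicle alone, Captisol at 20%. The names of the GSK libraries give the compound only, and that these hearts were infarcted too was read from the treatment protocol. Sham replicates 1 and 2 are each, by name, a mixture from 2 animals, and the animal code S5 stands in the names of both MI replicate 3 and Sham replicate 2. The comparisons ask how infarction sets the level of these genes and whether the inhibitor moves them.

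The mitochondrial ribosome descends from that of the bacterial ancestor of mitochondria. It is built from RNAs encoded on mitochondrial DNA and from proteins that are all encoded in the nucleus, made in the cytosol and imported. Many of its proteins are homologs of bacterial ribosomal proteins and others are specific to mitochondria. In mammals its products are subunits of the respiratory chain and of ATP synthase, which cardiac muscle holds in large amounts.

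Of the 78 genes, 77 reached the level needed for a test, a minimum of 1 FPKM in 5 or more of the 15 libraries, 48 of the large and 29 of the small subunit. The exception, Mrpl53, was listed at 0 in every library. It is overlapped on its own strand by the predicted protein-coding gene Gm42688, which reached 0.251 FPKM at most, and on the other strand by Ccdc142os. Across all genes, 12585 reached that level and were fitted together with limma on log2(FPKM + 1). A gene was called where the Benjamini-Hochberg adjusted p over all 12585 was under 0.05, and every adjusted p below is from that limma fit.

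In Sham hearts the large subunit genes had a median level of 25.2 FPKM and the small subunit genes 12.6 FPKM, against 5.48 FPKM over all 11247 protein-coding genes tested. The highest in the large subunit was Mrpl34 (mean level 109 ± 13.5 FPKM, SD, n = 5), homolog of bacterial L34, and the lowest tested was Mrpl32 (4.13 ± 0.240 FPKM), whose product is known to be trimmed by the m-AAA protease before assembly. In the small subunit Mrps21, homolog of bacterial S21, was highest (90.9 ± 8.21 FPKM) and Mrps10, homolog of bacterial S10, lowest (2.68 ± 0.343 FPKM). The genes thus differed in mean FPKM 26.5-fold within the large subunit and 33.9-fold within the small. Much of that range went with gene length. Across the 77 genes the Spearman correlation of gene length with the Sham level was -0.776, against -0.245 across protein-coding genes. These are correlations across genes of the same libraries, and genes are not independent replicates. FPKM also divides the fragments by this same length, so a negative correlation can come from the unit itself. The members run from 607 bases (Mrpl34) to 8631 bases (Mrps35), with a median of 2255 bases against 4345 bases over protein-coding genes. Those 2 genes had medians of 1447 and 1386 fragments over all libraries, but means of 109 and 9.20 FPKM in Sham.

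Between 21.5 M and 26.8 M fragments per library lay on genes, and the tested members stood on 179 fragments or more in any library. On the log2 scale the median SD over the members was 0.202 in GSK, 0.325 in MI and 0.105 in Sham, so the Sham libraries lay closest together. Over all genes the same medians were 0.177 in GSK, 0.219 in MI and 0.115 in Sham. MI replicates 2 and 5 stood at opposite ends of their group. Of the 77 members, 56 had their lowest MI value in replicate 2 and 66 their highest in replicate 5. In the same way 62 had their highest GSK value in GSK replicate 2. GSK replicates 3 and 4 and MI replicate 4 differed from the others in another way, by the share of summed FPKM that fell on genes of mitochondrial DNA, which was 46.4% and 48.7% in these GSK libraries and 40.6% in this MI library. That share was 31.8% to 32.7% in the other GSK libraries, 23.2% to 27.6% in the other MI libraries and 41.2% to 42.2% in Sham.

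Mitochondrial ribosomal protein genes of both subunits were lower in infarcted hearts. In MI against Sham 26 of the 77 fell (33.8%) and 0 rose, where 21.9% of all genes tested were called lower and 21.9% higher. The median log2 difference over the members was -0.32, against -0.02 over all genes, and 69 of the 77 lay below 0. None of the 8 above 0 reached an unadjusted p under 0.05. With limma's voom on the recovered fragments 29 members were called lower (37.7%, against 22.2% of all genes) and 0 higher. The subunits' medians were close, and the difference between them was not tested. In the large subunit 16 of 48 fell with a median of -0.33, and in the small subunit 10 of 29 fell with a median of -0.30. Mrps18a and Mrps30 sit in the large subunit in mammalian structures, and Mrps36 is known as an adaptor of the oxoglutarate dehydrogenase complex. With those 3 placed accordingly the medians were -0.32 and -0.28, with 16 of 50 and 9 of 26 lower. The MI libraries lay wholly below the Sham libraries in 10 members (13.0%), against 14.2% of all genes.

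The count turned on single libraries. Without MI replicate 5 it was 52 (67.5%, against 23.1% of all genes called lower in that fit). Without MI replicate 2 it was 16 (20.8%, against 18.8%), without Sham replicate 4 it was 16 (20.8%, against 18.9%) and without Sham replicate 5 it was 17 (22.1%, against 18.0%). Without the mixed Sham libraries it was 15 (19.5%, against 16.6%), and without the 3 libraries of high mitochondrial share it was 21 (27.3%, against 23.7%). In all of these but the fit without MI replicate 5, the members' share was thus closer to that of all genes than in the fit of all libraries. With 1 library left out in turn the median ran from -0.43 to -0.24 in the large and from -0.35 to -0.21 in the small subunit. Of the 26, 14 were called in all 20 alternative settings of the comparison, 8 of them in the large and 6 in the small subunit.

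**Figure D1:**
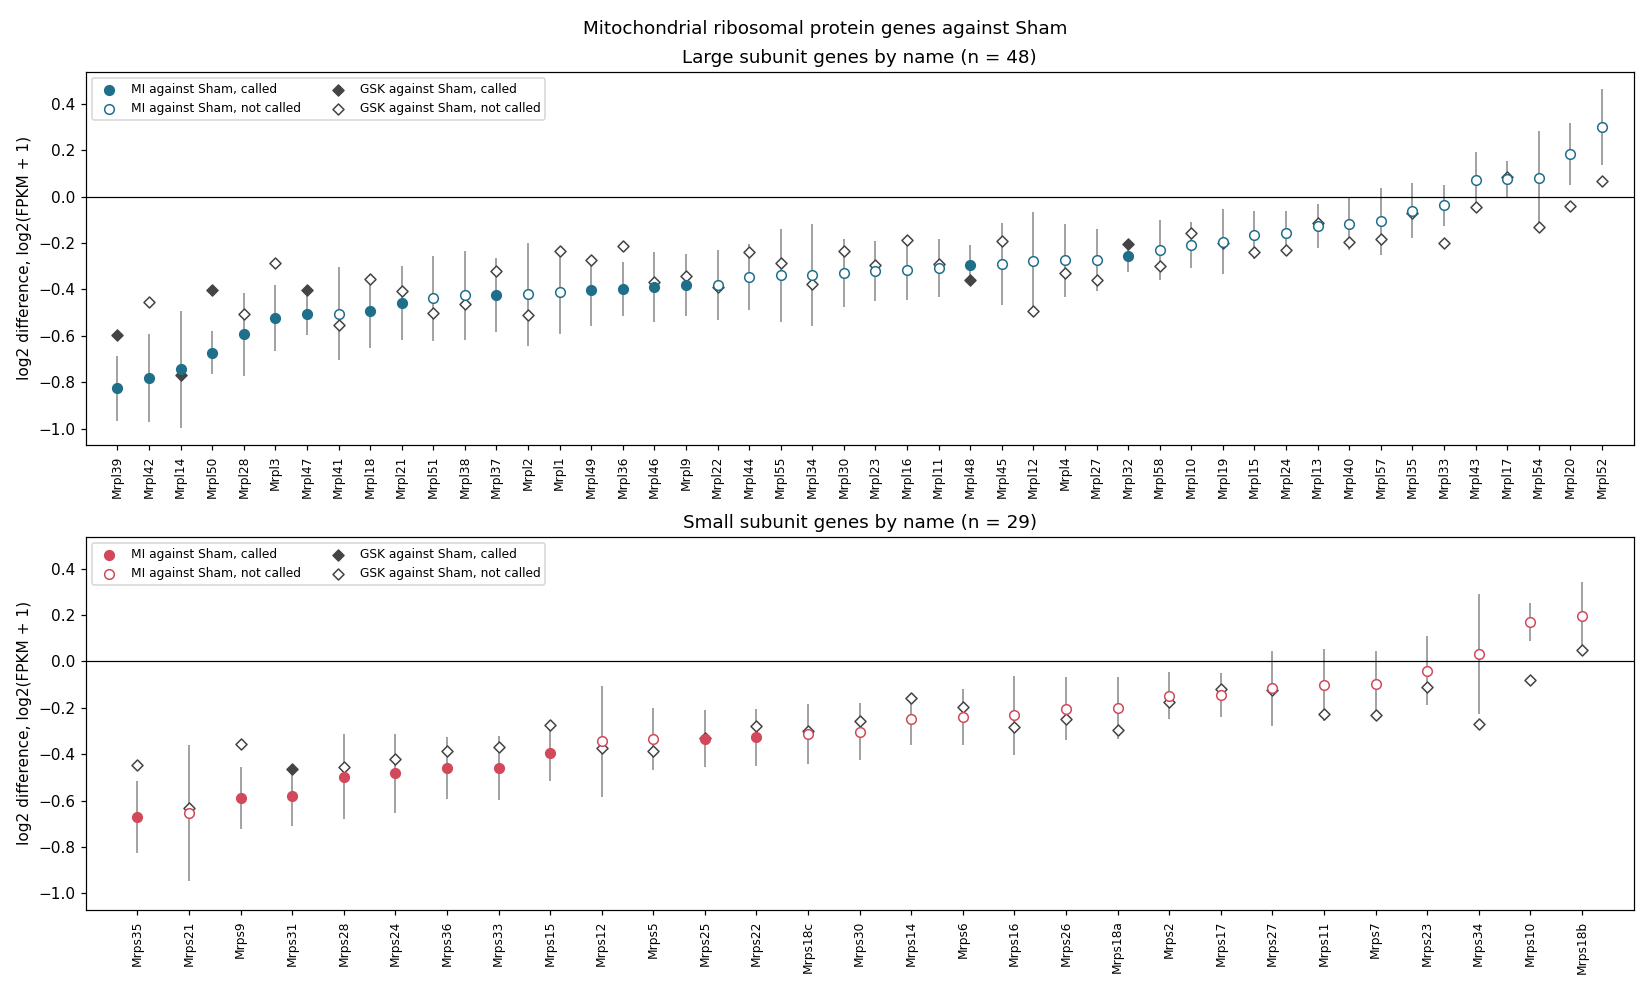
Log2 difference on log2(FPKM + 1) of each tested member, sorted within the large (top) and small (bottom) subunit by MI against Sham; circles show MI against Sham with bars of 1 SE, diamonds GSK against Sham, and filled symbols an adjusted p under 0.05. Most circles and diamonds lie below 0 in both subunits, with Mrpl39 lowest (-0.83) and Mrpl52 highest (0.30) for MI.

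The deepest fall in the large subunit was that of Mrpl39, a protein of the mitochondrial ribosome with no bacterial counterpart (ENSMUSG00000022889, chromosome 16, 84717576 to 84735742, minus strand, mm10). Its level was 16.9, 10.5, 14.8, 16.4 and 17.6 FPKM in MI replicates 1 to 5, against 23.7, 23.1, 27.4, 31.5 and 32.6 FPKM in Sham replicates 1 to 5. Every MI library lay below every Sham library, with a log2 difference of -0.83 ± 0.14 (SE, adjusted p = 0.000366). Mrpl42, also specific to mitochondria (chromosome 10, 95480805 to 95501940, minus strand), had 46.0, 20.97, 33.6, 31.1 and 52.2 FPKM in MI, against 57.8, 59.8, 57.4, 66.5 and 63.8 FPKM in Sham. Its highest MI library, replicate 5, still lay under its lowest Sham library, and the difference was -0.78 ± 0.19 (adjusted p = 0.00417). Mrpl50, a further mitochondria-specific protein (chromosome 4, 49512596 to 49521093, minus strand), had 16.9, 16.4, 14.8, 20.6 and 19.5 FPKM in MI, against 28.4, 28.0, 28.4, 27.9 and 29.9 FPKM in Sham. Its Sham values spread over 27.9 to 29.9 FPKM only, and it had the lowest p of all members (difference -0.67 ± 0.09, adjusted p = 9.17e-05).

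Among homologs of bacterial large subunit proteins, Mrpl14, which the assembly factor Malsu1 binds, had 44.9, 26.1, 46.3, 27.2 and 63.5 FPKM in MI, against 64.2, 70.2, 61.5, 70.8 and 66.9 FPKM in Sham. MI replicate 5 lay inside the Sham range, and the fall of 0.74 on the log2 scale (adjusted p = 0.0267) lost its call in 6 of the 20 alternative settings. Mrpl28, homolog of bacterial L28, averaged 47.9 ± 14.1 FPKM in MI and 70.3 ± 4.86 FPKM in Sham (difference -0.59 ± 0.18, adjusted p = 0.0149). Mrpl3, which lies near the peptidyl transferase centre, had 13.4, 7.62, 11.1, 12.8 and 14.0 FPKM in MI, against 16.8, 17.3, 15.1, 18.2 and 18.0 FPKM in Sham. Its groups did not overlap (difference -0.52 ± 0.14, adjusted p = 0.00785). Mrpl47, counterpart of bacterial L29 near the exit tunnel, averaged 4.17 ± 0.779 FPKM in MI and 6.28 ± 0.292 FPKM in Sham, again without overlap (difference -0.51 ± 0.09, adjusted p = 0.000486). Mrpl47, Mrpl14 and Mrpl3 overlap other genes of the table, as do 41 of the 78 members and 15 of the 26 that fell, and how shared fragments were counted is not given in the sources used. Ndufb5, a complex I subunit gene that overlaps Mrpl47, averaged 47.3 ± 9.91 FPKM in MI and 66.6 ± 6.61 FPKM in Sham and also fell (difference -0.51 ± 0.14, adjusted p = 0.00827). Tmem63b, which overlaps Mrpl14, fell too (-0.52 ± 0.13, adjusted p = 0.00464), as did Ndufs6, a complex I subunit gene that overlaps Mrpl36 (-0.87 ± 0.25, adjusted p = 0.0117). Other neighbours of members that fell differed less. Actl6a, which also overlaps Mrpl47, differed by 0.04 ± 0.11 (adjusted p = 0.77). Tcp1, which overlaps Mrpl18, averaged 29.9 FPKM in MI and 28.1 FPKM in Sham. Rab6a, which overlaps Mrpl48, averaged 23.8 FPKM in MI and 23.9 FPKM in Sham. The part of these neighbours in the members' values was not tested. Of the 40 tested members that overlap another gene 15 fell (37.5%, median -0.29), and of the 37 that overlap none 11 fell (29.7%, median -0.33).

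In the small subunit the deepest called fall was that of Mrps35, a mitochondria-specific protein (chromosome 6, 147042764 to 147073991, plus strand). It had 5.98, 3.28, 4.83, 5.75 and 8.03 FPKM in MI, against 8.22, 9.01, 8.58, 9.91 and 10.3 FPKM in Sham, and the groups did not overlap (difference -0.67 ± 0.16, adjusted p = 0.00296). Mrps9, homolog of bacterial S9, had 9.71, 5.92, 7.42, 9.30 and 11.2 FPKM in MI, against 13.1, 13.7, 13.2, 13.5 and 13.1 FPKM in Sham (difference -0.59 ± 0.13, adjusted p = 0.00254). The highest MI value of Mrps9, 11.2 FPKM, lay below all 5 Sham values, which spanned 13.1 to 13.7 FPKM. Mrps31, also mitochondria-specific (chromosome 8, 22411361 to 22429665, plus strand), had 8.66, 5.62, 6.58, 7.58 and 11.1 FPKM in MI, against 11.3, 11.8, 11.1, 12.6 and 13.6 FPKM in Sham. MI replicate 5 lay just above the lowest Sham value, and the difference was -0.58 ± 0.13 (adjusted p = 0.00228). Mrps36, the dehydrogenase adaptor, averaged 31.7 ± 7.40 FPKM in MI and 43.1 ± 2.83 FPKM in Sham (difference -0.46 ± 0.13, adjusted p = 0.0118). Mrps22, a mitochondria-specific protein in which mutations are known to cause cardiomyopathy in people, averaged 4.45 ± 1.02 FPKM in MI and 5.75 ± 0.354 FPKM in Sham. Its fall of 0.33 (adjusted p = 0.0411) lost its call in 10 of the 20 settings.

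Several members with central roles did not pass the test in MI. Mrps21 had a mean difference close to that of Mrps35, -0.65 ± 0.29, but its MI values of 77.2, 43.2, 70.8, 29.9 and 86.7 FPKM were spread widely, against 79.8, 92.9, 86.2, 94.0 and 101 FPKM in Sham (adjusted p = 0.0827). Mrpl34, the shortest gene, differed by -0.34 ± 0.22 (adjusted p = 0.228). Mrpl41, a mitochondria-specific protein (-0.51 ± 0.20, adjusted p = 0.052) and Mrpl44, a protein with an RNase III fold (-0.35 ± 0.14, adjusted p = 0.0614), came close to the threshold. Mrpl12, a stalk protein, differed by -0.28 ± 0.21 (adjusted p = 0.306) and Mrps12, part of the decoding centre, by -0.34 ± 0.24 (adjusted p = 0.258). Mrps2 and Mrps7, homologs of bacterial S2 and S7, differed by -0.15 ± 0.10 and -0.10 ± 0.14 (adjusted p = 0.246 and 0.601). Mrps23, with the highest mean in the small subunit over all libraries, differed by -0.04 ± 0.15 (adjusted p = 0.848), and Mrpl15, the longest gene of the large subunit, by -0.17 ± 0.10 (adjusted p = 0.201). An adjusted p above the threshold does not show that the levels were equal.

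The 8 members above 0 in MI against Sham were Mrpl17, Mrpl20, Mrpl43, Mrpl52, Mrpl54, Mrps10, Mrps18b and Mrps34, and none of them passed the test. Mrpl52, a mitochondria-specific protein, had 27.5, 28.0, 37.6, 26.5 and 42.7 FPKM in MI, against 20.6, 28.6, 25.0, 30.3 and 25.0 FPKM in Sham. It was the highest, at 0.30 ± 0.16 (adjusted p = 0.15), with MI replicates 3 and 5 above all Sham libraries. Mrpl20 averaged 22.4 ± 5.56 FPKM in MI and 19.3 ± 1.88 FPKM in Sham (difference 0.18 ± 0.13, adjusted p = 0.278), and Mrps10 averaged 3.14 ± 0.354 FPKM in MI and 2.68 ± 0.343 FPKM in Sham (difference 0.17 ± 0.08, adjusted p = 0.101). When the transcripts of mitochondrial DNA were set aside and the remaining totals made equal, the median of all genes shifted up by 0.078. In that fit 3 of the members, Mrpl20, Mrpl52 and Mrps10, were called higher, where 26.3% of all genes were called higher. In the same fit 22 members (28.6%) and 15.2% of all genes were called lower. Mrps18b is 1 of 3 paralogs of bacterial S18 in mammals. Its level was 6.71 ± 1.92 FPKM in MI and 5.60 ± 0.585 FPKM in Sham, whereas its paralog Mrps18a, of the large subunit, had 13.2 ± 2.98 FPKM in MI and 15.1 ± 1.95 FPKM in Sham, and neither difference passed the test.

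**Figure D2:**
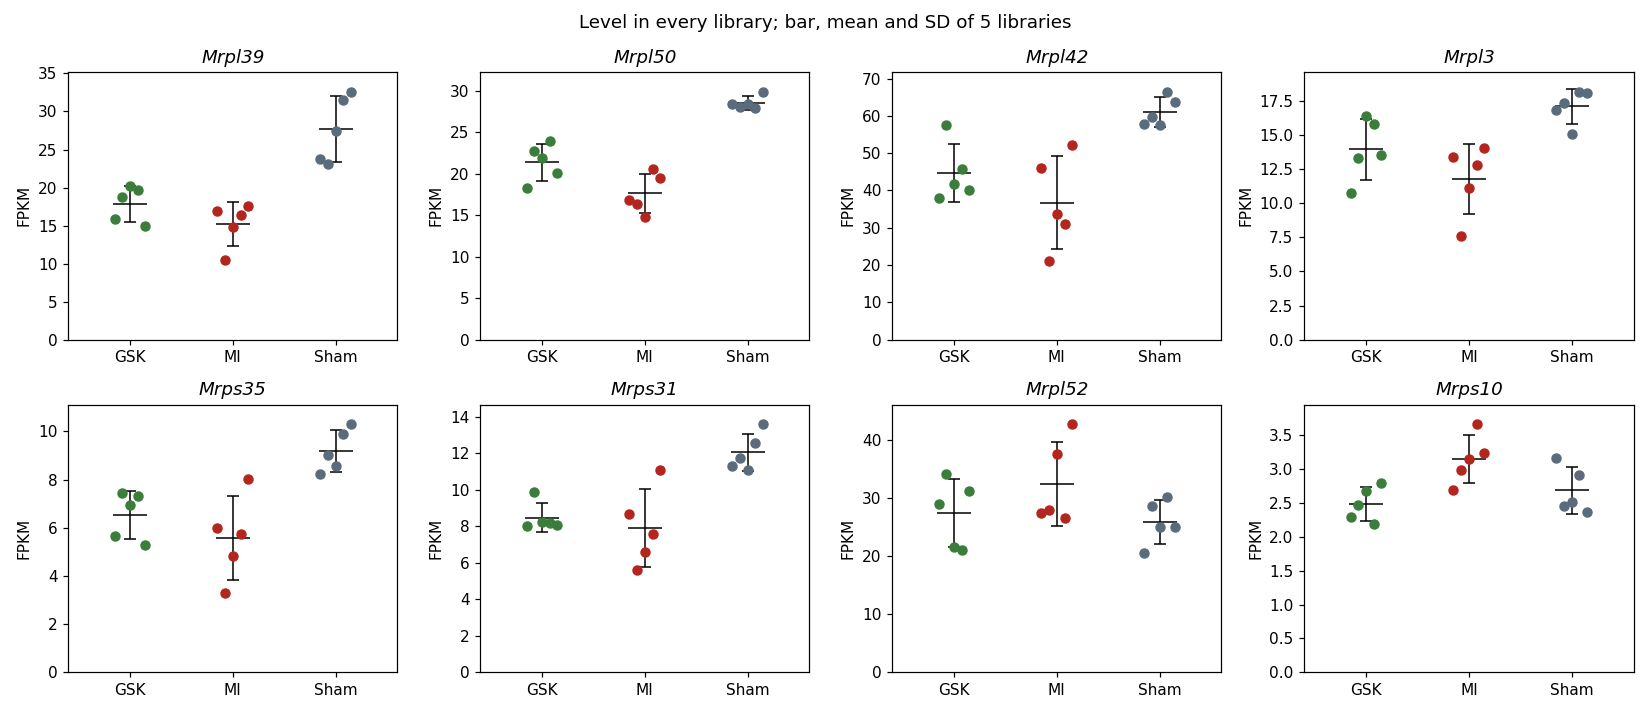
FPKM of 8 members in every library of the GSK, MI and Sham groups (points, replicates 1 to 5 from left to right; bar and whiskers, mean and SD of 5 libraries). Mrpl39, Mrpl42, Mrpl3, Mrpl50 and Mrps35 lie lower in every MI library than in any Sham library, Mrps31 overlaps in 1 MI library, and Mrpl52 and Mrps10 overlap.

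Mitochondrial ribosomal proteins carry numbers inherited from their bacterial homologs up to Mrpl36 and Mrps21, and higher numbers went to proteins without such a number. These classes go by number and not by homology. Mrpl47, which fell and is the counterpart of bacterial L29, is counted among the higher numbers. Of the 44 tested members with a bacterial number 10 fell in MI (22.7%), near the 21.9% of all genes called lower, with a median difference of -0.28. Of the 33 with higher numbers 16 fell (48.5%), with a median of -0.35. The contrast was widest in the small subunit, with 2 of 16 (12.5%) and 8 of 13 (61.5%) called lower and medians of -0.24 and -0.33. These counts describe the members, and the difference between both classes was not tested.

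Promoters were read for the members that RefSeq lists, as windows of 250 bases before to 50 bases after each start site, which covered 69 of the 78 genes in 75 windows. They were searched on both strands for 4 short sequences known from promoters of nuclear genes for mitochondria: GCGCATGCG, bound by NRF1, CCGGAAGT, bound by ETS factors such as GABP, AAGATGGCG, bound by YY1, and TCAAGGTCA, bound by oestrogen-related receptors. The ETS sequence stood in 16.0% of the members' windows, against 3.89% of all 32851 windows and 8.03% of the 11330 windows of tested protein-coding genes. The NRF1 sequence stood in 9.33%, against 1.75% and 3.62%, and the YY1 sequence in 10.7%, against 1.40% and 3.05%. The receptor sequence stood in none, against 0.423% and 0.274%. In all, 26 of the 69 genes held a match, and 1 of them, Mrps27, held both ETS and YY1 sequences. Members with a match that were lower in MI were 3 of 7 with NRF1 (median -0.26), 4 of 12 with ETS (median -0.28) and 4 of 8 with YY1 (median -0.30), beside 33.8% of all tested members and 21.9% of all genes. A match is a description of the letters and no evidence of binding.

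To show where these sequences stand, stretches of 4 promoters follow, 5′ to 3′ on the strand of the gene, from RefSeq on GRCm38.p6 with the matched letters in capitals. Mrpl39, Mrpl42 and Mrpl3 are members that fell in MI without overlap, and Mrpl52 is the member with the highest difference. Start sites are those of RefSeq and can differ from the deposited gene coordinates. By those coordinates the whole Mrpl39 stretch lies inside its gene (84717576 to 84735742). The ETS sequence of Mrpl3 likewise lies inside its gene, which starts at 105053239. The stretches are chr16:84735311-84735419 (minus strand, NRF1 sequence from 125 bases upstream of the start), chr10:95501900-95501972 (minus strand, YY1 sequence from 27 bases downstream), chr9:105053199-105053306 (plus strand, ETS sequence from 19 bases upstream) and chr14:54426860-54426958 (plus strand, ETS sequence read on the other strand, from 1 base downstream).
Mrpl39: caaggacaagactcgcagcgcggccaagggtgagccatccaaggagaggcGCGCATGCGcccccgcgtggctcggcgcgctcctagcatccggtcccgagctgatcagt
Mrpl42: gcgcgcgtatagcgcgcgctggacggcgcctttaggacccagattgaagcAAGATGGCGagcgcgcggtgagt
Mrpl3: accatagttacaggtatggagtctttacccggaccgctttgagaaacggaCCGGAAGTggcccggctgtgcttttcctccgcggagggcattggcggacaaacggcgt
Mrpl52: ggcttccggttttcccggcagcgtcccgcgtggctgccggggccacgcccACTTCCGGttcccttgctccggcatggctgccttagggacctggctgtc

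No member passed the test between GSK and MI hearts. In GSK against MI 0 of the 77 members were called by limma, and 0% of all genes were called in either direction, with 2638 of them at an unadjusted p under 0.05. The members' median difference was 0.01, their range -0.30 to 0.32, and 41 lay above 0. With limma's voom on the recovered fragments 0 members and 0.0159% of all genes were called. No member had GSK libraries wholly above or wholly below the MI libraries, against 1.15% and 0.858% of all genes. The median was 0.01 in the large and 0.01 in the small subunit. A typical SE of a member was 0.139, and it ran from 0.068 to 0.293.

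By unadjusted p, 2 members came under 0.05. Mrpl50 had 18.2, 22.7, 21.9, 24.0 and 20.1 FPKM in GSK, against 16.9, 16.4, 14.8, 20.6 and 19.5 FPKM in MI (difference 0.27 ± 0.09, adjusted p = 0.143). Mrps10 had 2.29, 2.47, 2.67, 2.20 and 2.79 FPKM in GSK, against 2.69, 2.98, 3.14, 3.66 and 3.24 FPKM in MI (difference -0.25 ± 0.08, adjusted p = 0.133). The groups overlapped in both. Further from 0 but more spread were Mrpl42, at 0.32 ± 0.19, and Mrps34, a mitochondria-specific small subunit protein, at -0.30 ± 0.26 (adjusted p = 0.333 and 0.512). Mrpl3 and Mrps9 stood at 0.24 ± 0.14 and 0.23 ± 0.13, and Mrpl20 and Mrpl33, homologs of bacterial L20 and L33, at -0.23 ± 0.13 and -0.16 ± 0.09.

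In GSK against Sham 7 of the 77 fell (9.09%) and 0 rose, where 7.58% of all genes were called lower and 10.8% higher. That share of calls was close to the background in this fit, in which all 3 groups shared a single estimate of each gene's spread. Where GSK and Sham alone were fitted, 36 members were called lower (46.8%, against 13.0% of all genes). In the fit of all groups the median difference was -0.28, against -0.02 over all genes, and 74 of the 77 lay below 0. None of the 3 above 0 reached an unadjusted p under 0.05. With voom 6 members were called lower (7.79%, near the 6.98% of all genes) and 0 higher. The large subunit had 6 of 48 lower with a median of -0.29, and the small subunit 1 of 29 with a median of -0.28. GSK libraries lay wholly below Sham in 11 members (14.3%), against 7.79% of all genes. When the transcripts of mitochondrial DNA were set aside and the remaining totals made equal, the median of all genes shifted up by 0.107 and the medians of the large and small subunit were -0.16 and -0.16, which is -0.253 and -0.250 relative to all genes. MI against Sham and GSK against Sham share the Sham libraries.

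The 7 were Mrpl14, Mrpl32, Mrpl39, Mrpl47, Mrpl48, Mrpl50 and Mrps31. Mrpl39 had 15.9, 18.8, 20.2, 19.7 and 14.9 FPKM in GSK, wholly below the Sham values given above (difference -0.60 ± 0.14, adjusted p = 0.011). Mrpl14 had 46.0, 64.9, 31.6, 23.8 and 38.5 FPKM in GSK, and GSK replicate 2 lay inside its Sham range (difference -0.77 ± 0.25, adjusted p = 0.0472). Mrps31 had 8.02, 9.89, 8.24, 8.16 and 8.08 FPKM in GSK, all below Sham (difference -0.46 ± 0.13, adjusted p = 0.0239). Mrpl47 averaged 4.50 ± 0.248 FPKM in GSK and 6.28 ± 0.292 FPKM in Sham (difference -0.40 ± 0.09, adjusted p = 0.00834). Mrpl39 and Mrpl47 were called in all 20 alternative settings, whereas the call was lost in 1 for Mrpl48, 1 for Mrpl50, 7 for Mrps31, 13 for Mrpl14 and 14 for Mrpl32. The count again turned on single libraries, since it was 24 without GSK replicate 2 (31.2%, against 8.99% of all genes), and 4 (5.19%, against 3.27% to 3.83%) without any 1 of GSK replicate 1, GSK replicate 5, Sham replicate 4 or Sham replicate 5. It was 4 without the mixed Sham libraries (against 3.68% of all genes) and 6 (7.79%) without the 3 libraries of high mitochondrial share (against 8.54%). Where GSK and Sham alone were fitted it was 36 (46.8%, against 13.0%).

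The medians of both subunits moved together from library to library. As deviations from the Sham mean, the median of the large subunit genes was -0.45, -0.04, -0.36, -0.34 and -0.30 in GSK replicates 1 to 5, against -0.22, -0.76, -0.32, -0.38 and 0.09 in MI, and lay between -0.09 and 0.07 in Sham. The median of the small subunit genes was -0.38, -0.03, -0.35, -0.37 and -0.22 in GSK, against -0.20, -0.63, -0.27, -0.33 and 0.08 in MI, and lay between -0.11 and 0.06 in Sham. GSK replicate 2 thus lay within the Sham range and MI replicate 5 above the highest Sham library, while the others of their groups lay below the Sham range. In MI replicate 5, 35 of the 77 members were above their highest Sham value and 13 were below their lowest. These counts were not made over all genes, whose median deviation in MI replicate 5 was 0.013. The gap between both medians was at most 0.129 in any library. The summed FPKM of the large over that of the small subunit genes was 2.22 ± 0.081 in GSK, 2.20 ± 0.014 in MI and 2.24 ± 0.048 in Sham (SD, n = 5 each), and the 3 groups overlapped.

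**Figure D3:**
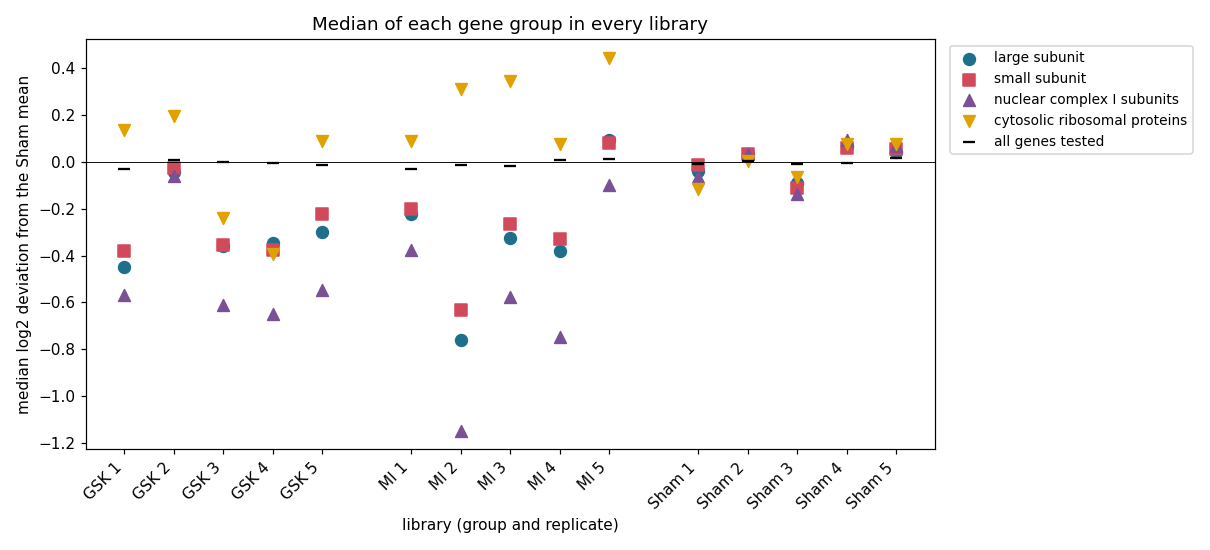
Median log2 deviation from the Sham mean, per library, of large and small subunit genes, nuclear complex I subunits, cytosolic ribosomal proteins and all genes tested (GSK, MI and Sham replicates from left to right). The symbols of both subunits lie beside each other in all libraries, MI replicate 2 being lowest (-0.76 and -0.63) and MI replicate 5 highest (0.09 and 0.08).

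Markers of cell types changed in MI against Sham too, some in the direction of the members and others in the opposite direction. Over all genes tested 21.9% were called lower and 21.9% higher in that comparison. The tissue expressed its defining markers, and no marker of any list was at 0. Of 10 cardiomyocyte markers 6 fell in MI (among them Pln, Tnni3 and Myh6) and 0 rose. Their summed level was 13273 to 19569 FPKM in GSK, 10998 to 22131 in MI and 15938 to 21125 in Sham, with the lowest and the highest MI values in replicates 2 and 5 and the highest GSK value in GSK replicate 2. Of 8 macrophage markers 8 rose in MI, with sums of 404 to 921 FPKM in GSK, 580.5 to 988 in MI and 273 to 342 in Sham. Of 8 fibroblast markers 6 rose, with sums of 449 to 1695 FPKM in GSK, 734 to 1783 in MI and 256 to 361 in Sham. All 6 markers of dividing cells rose, and 2 of 6 endothelial markers rose. Of 4 atrial markers Nppa rose (2.51 ± 0.87), while Myl7 (-2.68, adjusted p = 0.0557), Sln (-2.09, adjusted p = 0.126) and Myl4 (-1.88, adjusted p = 0.129) lay below 0 without passing the test. The part of these shifts in the members' levels was not tested, and in bulk tissue fewer cells of a type and less RNA per cell cannot be told apart.

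Genes of the rest of the mitochondrial translation system were called lower in MI as well, in part of each list. The counts below stand beside 21.9% of all genes called lower and 21.9% called higher. Of 5 ribosomal proteins under other names 3 fell in MI, among them Dap3, a small subunit protein that binds GTP (-0.53 ± 0.10), and Ptcd3 (-0.48 ± 0.13). Of 25 factors for ribosome assembly and rRNA modification 8 fell (32.0%) and 1 rose (median -0.28). The GTPase gene Mtg2 stood at -0.61 ± 0.11 and the rRNA methyltransferase gene Mrm2 at -0.52 ± 0.15. Of 13 translation factors and mRNA partners 7 fell (median -0.34), among them Lrpprc, which stabilises mitochondrial mRNAs (-0.71 ± 0.18), and the initiation factor gene Mtif2 (-0.47 ± 0.13). Of 17 aminoacyl-tRNA synthetases 9 fell (median -0.25). All 4 genes of mitochondrial transcription fell (Polrmt, Tfam, Tefm and Tfb2m), and of 10 regulators of mitochondrial biogenesis 5 fell, led by Ppargc1a, which encodes the coactivator PGC-1alpha (-1.50 ± 0.28), and 2 rose. None of these genes was called in GSK against MI.

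The RNAs that the ribosome carries and reads were lower too. Both mitochondrial rRNAs fell in MI, with log2 differences of -1.97 ± 0.26 for mt-Rnr2 of the large subunit and -1.80 ± 0.23 for mt-Rnr1 of the small subunit, and 12 of 13 mitochondrially encoded mRNAs fell (median -1.16). Poly-A libraries sample rRNA incompletely. In GSK against Sham both rRNAs fell and 3 of the 13 mRNAs fell (23.1%), where 7.58% of all genes were called lower. In GSK against MI the mRNA median was 0.75 with 0 called, where 0% of all genes were called. The nuclear subunits of complex I, which assemble with mitochondrially made ones, fell in MI in 26 of 38 and rose in 1 (median -0.57). That compares with 26 of 77 members and 21.9% of all genes called lower. Cytosolic ribosomal proteins were called higher in MI in 25 of 74 (33.8%, against 21.9% of all genes) and lower in 0, with a median of 0.27, led by Rpl3 (1.27 ± 0.14). In GSK against Sham their median was -0.03, with 1 higher (1.35%, against 10.8% of all genes).

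**Figure D4:**
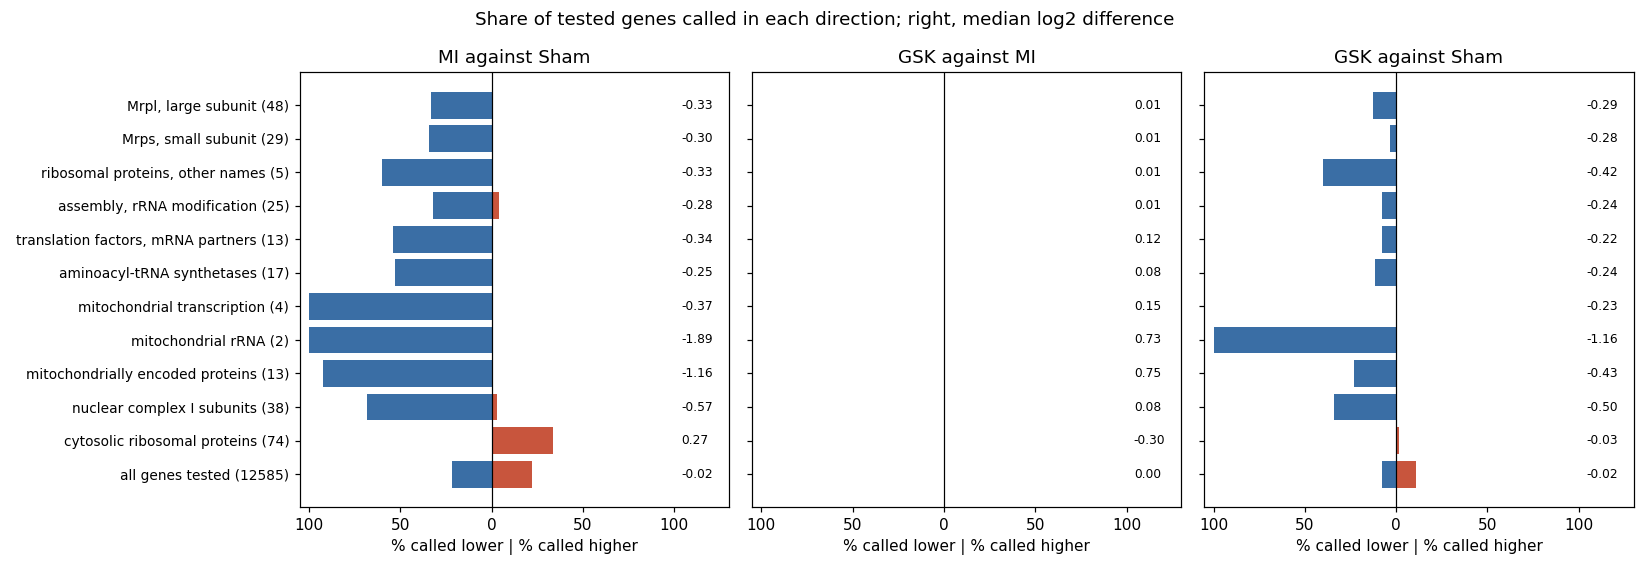
Share of tested genes called lower (left of 0) and higher (right of 0), in percent, for both subunits, other parts of the mitochondrial gene expression system, complex I, cytosolic ribosomal proteins and all genes, in each comparison; the number tested stands after each name and the median log2 difference at the right of each panel. The bars of both subunits have like lengths in MI against Sham (33.3% and 34.5%), and no bar appears in GSK against MI.

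The log2 difference followed gene length only weakly. Across the 77 members the Spearman correlation of length with the log2 difference was 0.157 in MI against Sham, 0.089 in GSK against MI and 0.216 in GSK against Sham. With 1 library left out in turn these ran from 0.053 to 0.206, from -0.115 to 0.261 and from 0.101 to 0.291, so the sign in GSK against MI turned on single libraries. Over the 11247 protein-coding genes the same values were -0.075, 0.257 and 0.077. Split by length, the 26 members up to 1664 bases had a median of -0.35 in MI against Sham with 8 lower, the 25 from 1667 to 3291 bases -0.28 with 8 lower, and the 26 from 3332 bases -0.30 with 10 lower. Protein-coding genes in the same classes had medians of -0.01, 0.04 and -0.02, and 19.8%, 19.5% and 22.9% of them were called lower, against 30.8%, 32.0% and 38.5% of the members. In GSK against Sham the members' medians were -0.37, -0.27 and -0.28, where protein-coding genes had -0.10, -0.02 and 0.004.

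Single libraries did tilt with length, and they did so in both directions. Here each library's deviation was taken from the gene's mean over all 15 libraries. The correlation of length with that deviation across members was 0.447 and 0.449 in GSK replicates 3 and 4. It was 0.389 in MI replicate 4, and these 3 are the libraries of high mitochondrial share. It was -0.491 in GSK replicate 2 and -0.386 in MI replicate 5. Across protein-coding genes these 5 libraries had 0.274, 0.375, 0.063, -0.212 and -0.351, in the same order. With the length trend of all genes taken out of each library, 35 members fell in MI against Sham (45.5%, against 21.8% of all genes). In that fit 1 member, Mrpl52, rose, where 23.3% of all genes were called higher. In GSK against Sham 7 fell (against 7.81% of all genes).

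**Figure D5:**
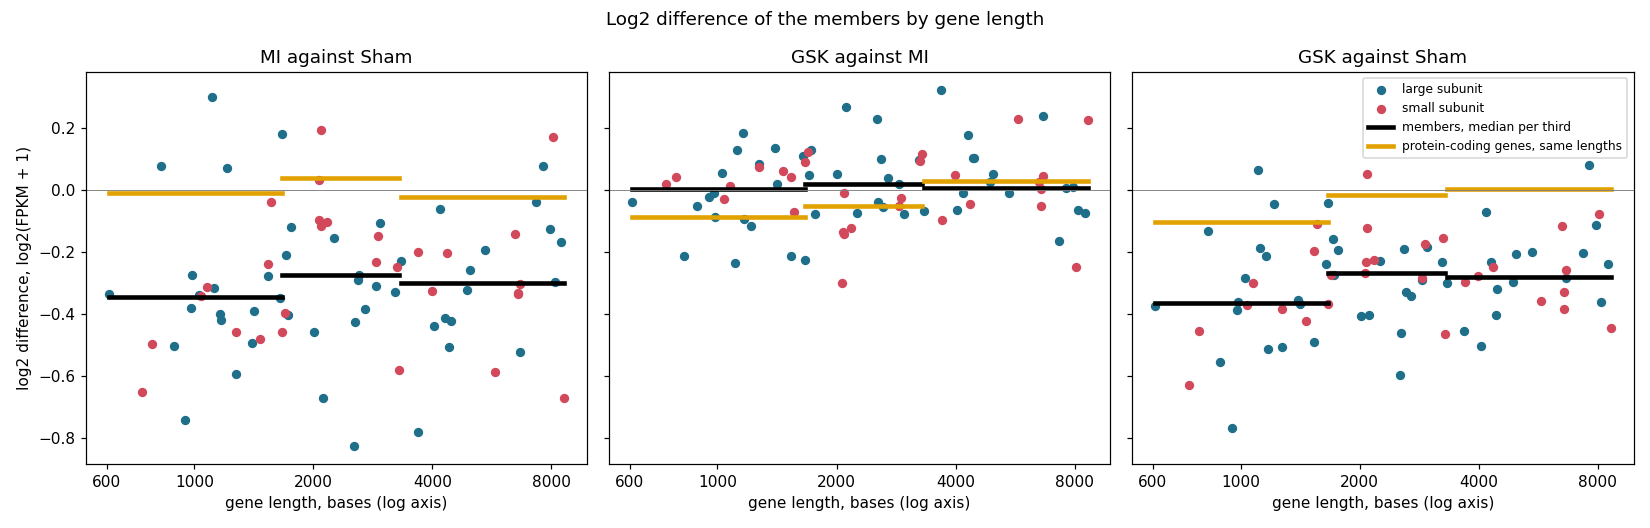
Log2 difference of each tested member against gene length in bases (log axis) for each comparison; black lines give the members' median in each of 3 length classes, and yellow lines the median of protein-coding genes of the same length class. The black lines lie at -0.35, -0.28 and -0.30 in MI against Sham, below the yellow ones, and near 0 in GSK against MI.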

How the data were processed

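Poly-A RNA sequencing of 15 left ventricle libraries, whose names carry 17 animal codes, gave a single table of FPKM values, deposited by the authors, with 54532 genes. Per the submitters' processing notes the build was mm10 and the tools included HISAT2, featureCounts, Subread, DESeq2 and R 3.5.1, named there without role or order. Neither the annotation release nor the use of strand or of shared fragments in counting is given in these sources. Each value multiplied by its gene's length came out as a whole number of fragments in 100% of cases (within 0.01), which recovers the fragments. The scaling total behind each deposited FPKM was 0.911 to 1.17 times the assigned fragments, and in all 15 libraries it was 23.6 M times a factor from median ratios of the recovered fragments. A level is therefore relative to the library's median gene.

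Group means were fitted with limma 3.58.1 in R 4.3.3 to log2(FPKM + 1), a pseudocount of 1 that understates changes of low genes, over 12585 genes and 15 libraries. All 3 groups shared a single estimate of each gene's spread, so a gene's SE was the same in every comparison. A count test was not the main test because the unit is FPKM. Summaries were made in Python 3.11.15. The script was tested on simulated data. Promoters came from RefSeq (GRCm38.p6), and the motifs' letters were chosen after the data had been seen. GENCODE vM21 holds all 78 members, 73 with unchanged coordinates. The library names give each replicate its own code or pair of codes, except that the code S5 stands in both MI replicate 3 and Sham replicate 2, and whether that is the same animal is not stated. P-values measure the spread between these libraries.

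Members, lists and tests were chosen with earlier results of these data known. Named were the 6 largest falls and any rises called in MI against Sham, the 4 of lowest p on each side in GSK against MI, the 3 largest called in GSK against Sham, the longest, shortest and highest gene of each subunit, and 10 fixed genes. Others were named after their values were seen. Alternatives covered the pseudocount, filter, scaling, groups fitted, replicate block, length trend, voom, each library left out and, added after seeing the data, the subunit by structure.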

Additional observations from a re-analysis of the deposited data

Results flagged for a closer look

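A single library far from the others was looked for in 87 groups of 5 libraries, 78 of them levels of named members and 9 of them subunit medians or the ratio of subunit sums, of which chance alone flags about 1 in 20, and 2 stood out. Mrps31 had 9.893 FPKM in GSK replicate 2, where the other GSK libraries lay between 8.02 and 8.24 FPKM. That library had the highest GSK value in 62 of the 77 members. Mrpl50 had 29.869 FPKM in Sham replicate 5, where the other Sham libraries lay between 27.9 and 28.4 FPKM.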

How the results depend on the processing

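For the 26 members named by rule in both comparisons against Sham and 8 of them in GSK against MI, 1108 recomputed values kept direction and side of the threshold, 37 lost and 32 gained a call, and 15 changed sign. Of the summary values 223 stayed within 1.5 times or the spread of the result reported, and 16 did not. With 1 library left out in turn, members called numbered 16 to 52 in MI against Sham and 4 to 24 in GSK against Sham, and 0 in GSK against MI. Without the filter on low values they numbered 16 in MI against Sham (20.8%, against 8.82% of all genes called lower). In GSK against Sham they numbered 4 (5.19%, against 1.87%). Without the mixed Sham libraries they numbered 15 (19.5%, against 16.6%) and 4 (5.19%, against 3.68%). With GSK and Sham alone fitted, 36 were called (46.8%, against 13.0% of all genes called lower). With transcripts of mitochondrial DNA set aside and totals made equal, the GSK against Sham medians were -0.161 for the large and -0.158 for the small subunit. The causes were not tested.

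Over all 77 tested members, the sign changed in at least 1 setting for 9 in MI against Sham, 50 in GSK against MI and 11 in GSK against Sham, and 0 of these were called in the reported fit. Among those named by rule, in MI against Sham these were Mrpl33 (0.050) and Mrps23 (0.058) with mitochondrial transcripts set aside, Mrps23 also without the mixed Sham libraries (0.00879). With 1 library left out in turn, Mrps23 ran from -0.171 to 0.0897, Mrps7 from -0.208 to 0.00292 and Mrps34 from -0.148 to 0.196. In GSK against Sham they were Mrpl20 (0.086), Mrps10 (0.019) and Mrps23 (0.023) with mitochondrial transcripts set aside, Mrpl20 (0.035) and Mrps34 (0.107) without the 3 libraries of high mitochondrial share, Mrpl20 with the length trend removed (0.023), and Mrpl52, which ran from -0.0189 to 0.149 with 1 library left out in turn.

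Residual correlations of same-numbered libraries ran from -0.411 to 0.486. They were not set beside those of differently numbered libraries, so they cannot show whether the replicate numbers pair the libraries. With the replicate block 19 members were called lower in MI against Sham (24.7%, against 19.6% of all genes). In GSK against Sham 5 were called lower (6.49%, against 4.25%), and in GSK against MI 0 were called. Each tested member rested on at least 179 fragments in every library, and precision is limited by 5 libraries a group.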
